A study of Mus musculus with 10 samples.

Results

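The collagen genes of mouse embryonic fibroblasts (MEFs) were examined in 5 male and 5 female RNA-seq libraries. Members were taken by name alone, as every gene whose symbol reads Col, a number, a and a number, which gave 44 collagen genes among 52550 genes. They were divided by the structure of the proteins they encode into 11 fibrillar genes, 9 FACIT genes (fibril-associated collagens with interrupted helices), 6 basement membrane genes, 6 beaded filament genes, 4 transmembrane genes, 3 short-chain network genes and 2 multiplexin genes, with 3 genes left as other.

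MEFs are primary connective tissue cells grown from whole embryos and kept in culture for a few passages. Both groups were made from C57BL/6 mice at embryonic day 14 and were labelled passage 3. The cells were grown in DMEM with fetal bovine serum, and no genotype change or treatment was labelled in either group. Libraries that mark the strand were made from total RNA after removal of ribosomal RNA. The study compared expression between the sexes. Whether the 5 libraries of each sex are separate embryos or cultures is not labelled. The spread behind each p-value is therefore that of these libraries and may be technical.

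Collagens are secreted proteins whose chains wind into a rope-like helix, which requires glycine at regular places along each chain. Fibrillar collagens form the tensile fibrils of skin, tendon, bone and cartilage, FACIT collagens decorate those fibrils, and basement membrane collagens assemble into sheets beneath epithelia and around vessels. Fibroblasts are known as major producers of type I, III, V and VI collagen, whereas type II, IX, X and XI chains are known from cartilage.

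The glycine rule is written in the exons that were counted. Glycine is encoded by GGN codons, and in the fibrillar genes many exons are exactly 54 bases long and open on a glycine codon. The first such exon of each gene was read from the GENCODE M21 principal transcript (build mm10) and is shown for the abundant fibrillar genes and for Col2a1, with capitals for the GG of the glycine codon that opens each triplet of the repeat.
Col1a1, chr11:94939904-94939957, plus strand, coding exon 8: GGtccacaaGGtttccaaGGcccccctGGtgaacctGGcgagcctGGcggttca
Col1a2, chr6:4515481-4515534, plus strand, coding exon 8: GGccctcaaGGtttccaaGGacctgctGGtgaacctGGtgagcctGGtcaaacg
Col3a1, chr1:45325360-45325413, plus strand, coding exon 6: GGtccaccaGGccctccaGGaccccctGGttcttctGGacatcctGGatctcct
Col5a1, chr2:27965251-27965304, plus strand, coding exon 15: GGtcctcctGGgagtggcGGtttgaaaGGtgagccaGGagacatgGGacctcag
Col5a2, chr1:45434892-45434945, minus strand, coding exon 6: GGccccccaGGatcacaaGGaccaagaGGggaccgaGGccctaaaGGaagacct
Col2a1, chr15:97998545-97998598, minus strand, coding exon 6: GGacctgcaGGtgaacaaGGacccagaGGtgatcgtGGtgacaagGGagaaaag

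Each of these exons holds 6 triplets that open with a glycine codon, spaced 9 bases apart. Glycine codons at the other places of a triplet, as in Col1a1 and Col5a1, are in lower case. Over the principal transcripts of the collagen genes, 469 of 1912 internal coding exons (24.5%) were 54 bases long, against 671 of 154658 (0.434%) in all other genes. Of the 469 collagen exons of that length, 452 (96.4%) held GG at base 1 and at each of the following places 9 bases apart, on the coding strand. None of the 671 exons of that length in other genes did. The share of exons of exactly 54 bases was 48.6% in the fibrillar genes, 26.4% in the FACIT genes, 8.37% in the beaded filament genes and 4.23% in the basement membrane genes. The short-chain network genes, Col8a1, Col8a2 and Col10a1, have no internal coding exon.

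The classes also differed in how long the glycine pattern runs without a break. The longest run of triplets that begin with GGN had a median of 338 triplets in the fibrillar genes (216 to 344) and 43.5 in the basement membrane genes (39 to 66). The break itself is shown for Col4a1 and Col4a2, in the spliced coding bases around the first interruption. Between the last full triplet of the first run and the start of the next run lie 10 codons and 12 codons, respectively.
Col4a1, chr8:11244495-11245066, minus strand, coding exons 8 to 9: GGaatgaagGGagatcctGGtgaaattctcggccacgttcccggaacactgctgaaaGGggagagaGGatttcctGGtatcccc
Col4a2, chr8:11402172-11403010, plus strand, coding exons 7 to 8: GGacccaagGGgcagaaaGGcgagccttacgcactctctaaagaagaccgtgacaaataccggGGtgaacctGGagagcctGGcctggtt

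The libraries held between 22588200 and 32744611 unique exon reads, taken here as reads that map to 1 place and fall in exons. The file headers give this name without its counting rule. No pair of libraries of the same sex agreed within sampling noise. Xist, the RNA that coats the inactive X, lay between 22.8 and 36.8 CPM (reads scaled to the library total) in the female libraries and at no more than 0.0736 in the male ones, and Ddx3y, a Y-linked gene, lay between 66.6 and 84.5 CPM in the male libraries and at no more than 0.150 in the female ones. All 9 genes of a fibroblast marker list were present and 0 were called between the sexes, from Vim at 2713 ± 129 CPM per kilobase of exon to Fap at 0.915 ± 0.219 (SD, n = 10). Dcn and Lum, matrix genes of many fibroblasts, were low at 7.86 and 2.06, and Acta2, a myofibroblast marker, was at 2669. Macrophage, endothelial, epithelial, muscle and neural or glial markers were also present, with summed levels of at most 232 CPM per list in any library. In these bulk samples, fewer cells of a type and less RNA per cell cannot be told apart.

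Collagen genes took 2.69% ± 0.16 of the unique exon reads (SD, n = 10), with type I collagen the largest part of it. The share was 2.80%, 2.63%, 2.46%, 2.77% and 2.68% in male libraries 1 to 5 and 2.62%, 3.03%, 2.59%, 2.59% and 2.73% in female libraries 1 to 5. The groups overlapped, and male library 3 was the lowest and female library 2 the highest. Col1a1 and Col1a2, the chains of type I collagen, made up 49.0% ± 1.73 of all collagen reads, and the 10 collagen genes with the most reads made up 95.2% over all libraries. By class, fibrillar genes held 67.7% ± 1.18 of the collagen reads, basement membrane genes 13.1% ± 1.02, FACIT genes 10.6% ± 0.60, beaded filament genes 6.69% ± 0.42 and short-chain network genes 1.2503% ± 0.14. Of the 44 genes, 8 were among the 100 genes with the highest CPM, where Col1a1 ranked 6 and Col1a2 ranked 14.

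Levels are CPM of unique exon reads, scaled between libraries by TMM factors, per kilobase of annotated exon, so that genes of different length can be set side by side. On this scale the collagen genes spread over 5 orders of magnitude, from Col1a1 at 1408 to Col13a1 at 0.00775. The level was at least 1 in 20 genes and below 1 in 24, or in 21 and 23 with the length of the principal transcript. No gene was at 0 in every library.

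**Figure D1:**
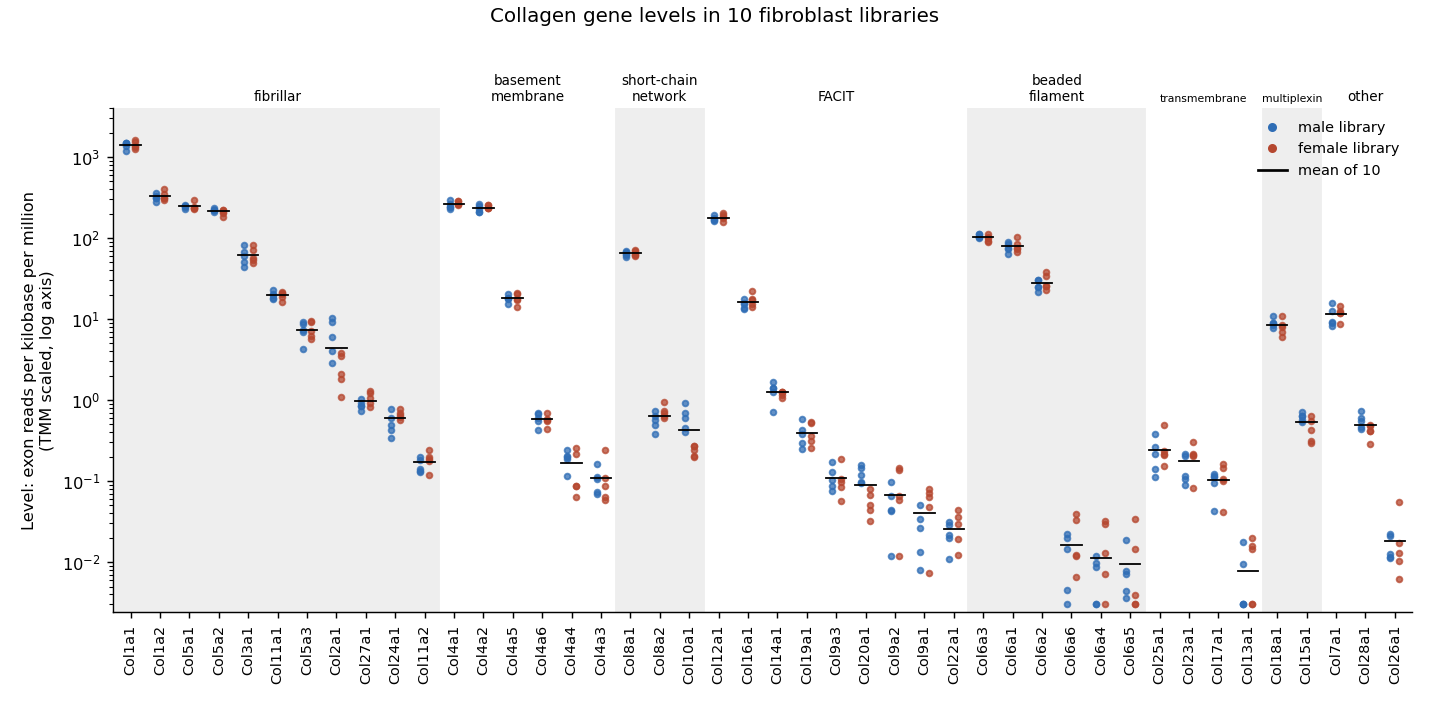
Level of the 44 collagen genes in each library, in CPM of unique exon reads per kilobase on a log axis, by class (blue, 5 male libraries; red, 5 female libraries; bar, mean of 10; values of 0 are drawn near the bottom axis). Col1a1 is the highest at 1408, the fibrillar, basement membrane, FACIT, beaded filament and short-chain network classes each hold genes above 10 and genes below 1, and the 4 transmembrane genes lie below 1.

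Among the fibrillar genes, which encode the fibril-forming chains, the chains of type I collagen and Col5a1 and Col5a2 led, and Col2a1 and Col11a2, chains known from cartilage, were far lower. Col1a1 (chr11:94936224-94953042), the major chain of type I collagen, stood at 1466, 1349, 1194, 1484 and 1478 in the male libraries and at 1361, 1602, 1256, 1342 and 1551 in the female ones, a mean level of 1408 ± 129.6 (SD, n = 10). Every library lay above 1000 and the sexes overlapped throughout. Col1a2, its partner chain, stood at 358, 311, 279, 331 and 313 in males and at 346, 403, 297, 313 and 314 in females. Male library 3 was the lowest for both chains and female library 2 the highest.

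Col5a1 and Col5a2, the chains of type V collagen that nucleates type I fibrils, had mean levels of 245 ± 17.95 and 215 ± 15.6. Their ranges over libraries, 230.2 to 291 and 179.9 to 236, overlapped. Col3a1, the chain of type III collagen of distensible tissue, was lower and more variable. It read 81.5, 59.5, 43.7, 67.5 and 51.1 in males and 71.6, 81.5, 54.1, 56.3 and 49.2 in females. The highest Col3a1 library did not reach the lowest Col5a2 library on this scale. The other fibrillar genes followed at 19.5 ± 1.95 for Col11a1, 7.41 ± 1.75 for Col5a3 and 4.45 ± 3.08 for Col2a1, and Col27a1, Col24a1 and Col11a2 had means below 1. With transcript length Col27a1 was at 1.66.

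The basement membrane genes lie in head-to-head pairs that share a start region, and the pairs differed widely in level. Col4a1 and Col4a2 on chromosome 8, the chains found in nearly all basement membranes, were abundant, and their annotated starts overlap by 22 bases. Col4a1 stood at 239, 266, 243, 292 and 228 in males and at 253, 283, 288, 261 and 260.3 in females, and Col4a2 at 229, 247, 212, 260.2 and 209 in males and at 234, 256, 253, 235 and 235 in females. The sexes overlapped for both, and male library 4 was the highest and male library 5 the lowest for both chains. Col4a4 and Col4a3 on chromosome 1, known from the kidney filter and with starts 72 bases apart, had levels of 0.166 ± 0.070 and 0.108 ± 0.055.

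Col4a6 and Col4a5 on the X chromosome, 1309 bases apart, were unequal. Col4a5 had a level of 18.1 ± 2.18 and Col4a6 of 0.579 ± 0.095 (SD, n = 10). Female cells carry 2 copies of these X-linked genes, 1 of them on the inactive X, and male cells carry 1. Neither gene showed a sex difference past the threshold. The log2 fold change of females against males was 0.01 ± 0.10 (SE) for Col4a5 and -0.06 ± 0.16 for Col4a6 (edgeR quasi-likelihood test, adjusted p = 0.995 and 0.965).

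Of the FACIT genes, Col12a1 stood far above the rest at 179 ± 14.9, followed by Col16a1 at 16.3 ± 2.67 and Col14a1 at 1.252 ± 0.257. Col12a1 encodes a chain that binds the surface of type I fibrils. Its values were 191, 169, 171, 179 and 163 in males and 158, 206, 181, 176 and 195 in females. Female libraries held both its lowest and its highest value. The other 6 FACIT genes lay below 1, the highest of them Col19a1 at 0.393 ± 0.121, with the type IX chains of cartilage fibrils, Col9a1, Col9a2 and Col9a3, between 0.0404 and 0.110.

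The beaded filament genes split into 3 abundant chains and 3 that were nearly absent. Type VI collagen, which forms filaments around cells, is built in most tissues from the chains of Col6a1, Col6a2 and Col6a3, and their levels were 78.6 ± 11.5, 27.8 ± 5.199 and 103 ± 8.42. Col6a4, Col6a5 and Col6a6, which can take the place of the Col6a3 chain in some tissues, had levels of at most 0.0164. Col6a4 had 27 reads over all libraries and Col6a5 had 24, with no read in 3 and 2 of the 10 libraries.

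In the short-chain network class, Col8a1, known from vessel walls and the corneal endothelium, stood at 61.2, 58.8, 67.9, 70.0 and 63.7 in males and at 63.8, 62.3, 71.1, 68.3 and 60.0 in females, the narrowest spread of the collagen genes with a mean of at least 100 reads. Its partner Col8a2 was at 0.641 ± 0.153, and Col10a1, the chain of hypertrophic cartilage, at 0.426 ± 0.244. Col7a1, which anchors the epidermis to the dermis, was at 11.4 ± 2.60, and Col18a1, the multiplexin whose end fragment is endostatin, at 8.49 ± 1.49. Col15a1, the other multiplexin, was at 0.532 ± 0.141. Col28a1 was at 0.489 ± 0.121, and Col26a1, with 29 reads in all, at 0.0181 ± 0.0139. The 4 transmembrane genes, Col25a1, Col23a1, Col17a1 and Col13a1, had levels between 0.00775 and 0.241. Col13a1 was the lowest of all, with 10 reads spread over 5 libraries.

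Chains that assemble together were compared as ratios, which cancel the scaling of a library. Col1a1 exceeded Col1a2 by 4.32-fold per kilobase of annotated exon, from 3.93 to 4.93 over the 10 libraries. This size depends on the length used. The annotated exons of Col1a2 cover 2.27 times the length of its principal transcript, and with transcript length the ratio was 2.10. From reads across exon junctions, counted per junction, it was 2.25. Col1a1 was the higher chain in all 10 libraries on each of the 3 scales.

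The ratio of Col4a1 to Col4a2 was the most constant, at 1.10 with a range of 1.05 to 1.15 and an SD of 0.04 on the log2 scale, against an SD of 0.12 for Col4a1 alone. It was 1.37 from junction reads and 1.33 from total exon reads, and 82.6% of the total exon reads of Col4a1 were unique. For Col5a1 to Col5a2 the direction turned with the scale, from 1.14 per kilobase of annotated exon to 0.795 with transcript length and 0.842 from junctions, so no order between these chains can be given. Col6a1 exceeded Col6a2 by 2.85-fold, which became 1.44-fold and 1.33-fold on the other scales, and Col6a3 exceeded Col6a1 by 1.31-fold, 1.63-fold and 1.80-fold.

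The partner chains of the remaining pairs were far apart. Col8a1 exceeded Col8a2 by 103-fold (63.2 to 159 over libraries), Col11a1 exceeded Col11a2 by 117-fold (86.0 to 184) and Col4a5 exceeded Col4a6 by 31.5-fold (26.4 to 36.0). With transcript length these were 99.9, 116 and 26.96. From junctions, Col11a1 to Col11a2 was 173 (114 to 456) and Col4a5 to Col4a6 was 36.1 (26.2 to 44.4).

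**Figure D2:**
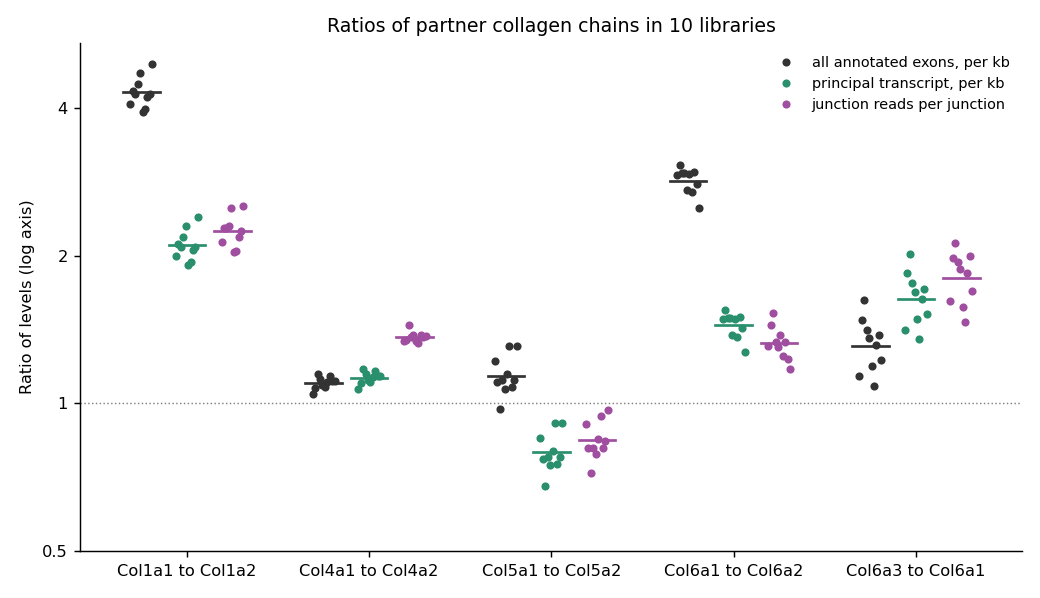
Ratio of partner chains in each of the 10 libraries on a log axis, from all annotated exons per kilobase (black), from the principal transcript per kilobase (green) and from junction reads per junction (purple); bars are geometric means. The Col1a1 to Col1a2 points lie near 4.32 in black and near 2.10 and 2.25 in the other colours, and the Col5a1 to Col5a2 points cross 1 between the scales.

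Reads in introns, which can come from RNA that is not yet spliced, were scarce on the abundant collagen genes. Among the 23 collagen genes with a mean of at least 100 unique exon reads, the median intron share of unique reads was 6.79%. It was 14.9% over all 10528 genes with at least that mean, which were not matched to the collagen genes by level. At a mean of at least 1000 reads the medians were 6.32% for 18 collagen genes and 11.6% for 5073 genes. Col1a1 had the lowest share, 0.538%, 0.316%, 0.324%, 0.242% and 0.318% in the male libraries and 0.355%, 0.285%, 0.424%, 0.319% and 0.342% in the female ones. Every library was below 1%, and Col1a2 and Col6a1 followed at 1.09% ± 0.26 and 1.116% ± 0.29.

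The share differed strongly between genes of 1 class. Col24a1 and Col27a1, fibrillar genes of low level, had intron shares of 63.5% ± 5.10 and 50.2% ± 4.37, and Col4a6 had 36.1% ± 5.29, the highest 3 among the genes with at least 100 reads. Among abundant genes Col8a1 had 23.8% ± 5.37 and Col4a5 22.9% ± 4.62. Of the 21 collagen genes below 100 reads, 16 had a mean intron share above 50%, against 2 of the 23 above that depth. Exon reads enter both this split and the share, so few exon reads by themselves raise the share. The same counts over all genes were not made. Col20a1, a FACIT gene, had a mean of 10.3 exon reads and 116 intron reads.

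Per kilobase, exons held a median of 149 times the reads of introns in the 23 collagen genes. The median was 26.9 times over all genes with a mean of at least 100 exon reads, again not matched by level. The share of exon reads that crossed an exon junction was 48.7% at the median in these collagen genes and 24.96% over all genes, and the collagen genes have many short exons as shown above. Over all collagen reads, the intron share ran from 2.56% in male library 4 to 5.34% in female library 3. The intron share of all genes was lowest, 22.5%, and highest, 28.6%, in the same libraries, and the part of this library difference in the collagen values was not tested.

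**Figure D3:**
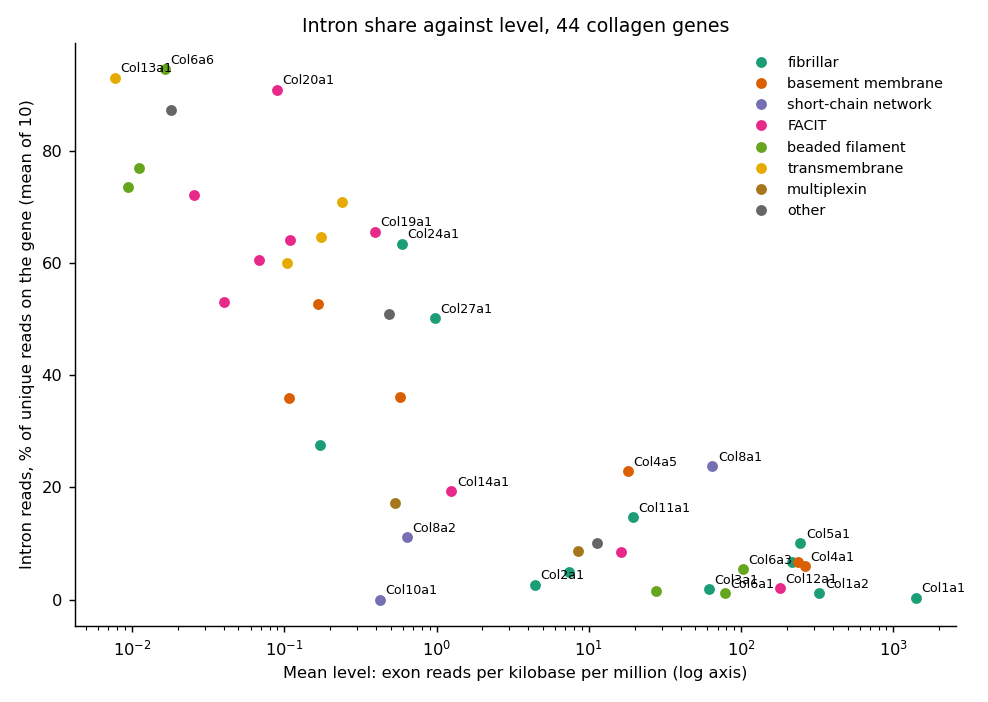
Mean intron share of unique reads (percent, n = 10) against mean level on a log axis for the 44 collagen genes, coloured by class. Genes with a level above 100 lie at or below about 10%, Col1a1 lies at 0.35%, and most genes with a level under 1 lie above 50%.

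Collagen genes varied more between libraries than most genes above the same read minimum. The coefficient of variation (CV) of CPM over the 10 libraries had a median of 14.6% for the 23 collagen genes with at least 100 reads. It was 8.51% for all genes with at least 100 reads, and 16 of the 23 lay above the latter. At a mean of at least 1000 reads the medians were 10.3% and 6.43%. Col2a1 had the highest CV, 69.1%, followed by Col24a1 at 23.9% and Col5a3 at 23.6%. The lowest were Col8a1 at 6.70%, Col5a2 at 7.27% and Col5a1 at 7.33%. Without female library 2, which had the highest collagen share, the collagen median was 11.2%. The median over all genes without that library was not computed.

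No collagen gene passed the test for a difference between the sexes. With edgeR's quasi-likelihood test on unique exon reads, 36 of the 44 genes had enough reads, and 0 were called at a Benjamini-Hochberg adjusted p under 0.05, taken over 13615 genes of which 16 (0.118%) were called. Of the 36, 23 had a positive log2 fold change (higher in females) and 13 a negative one, against 51.3% positive over all tested genes. The median was 0.04 for the collagen genes and 0.00298 over all genes. An unadjusted p under 0.05 was found for 5 of the 36, and for 7.43% of all genes. By DESeq2, which called 87 of the genes (0.639%), 1 collagen gene was called, and it was Col10a1. Limma-voom called 0.

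The abundant genes had small differences with small errors. The log2 fold change was 0.03 ± 0.08 (SE) for Col1a1, 0.07 ± 0.08 for Col1a2, 0.08 ± 0.07 for Col4a1, 0.07 ± 0.06 for Col4a2, 0.02 ± 0.06 for Col5a1, -0.10 ± 0.06 for Col5a2, 0.07 ± 0.07 for Col12a1 and -0.11 ± 0.06 for Col6a3. Col3a1 was less precise at 0.04 ± 0.19. All of these had adjusted p between 0.735 and 0.982 in the edgeR test. Larger estimates belonged to genes of lower level than these, among them Col2a1, which had 177 to 1839 unique exon reads per library.

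**Figure D4:**
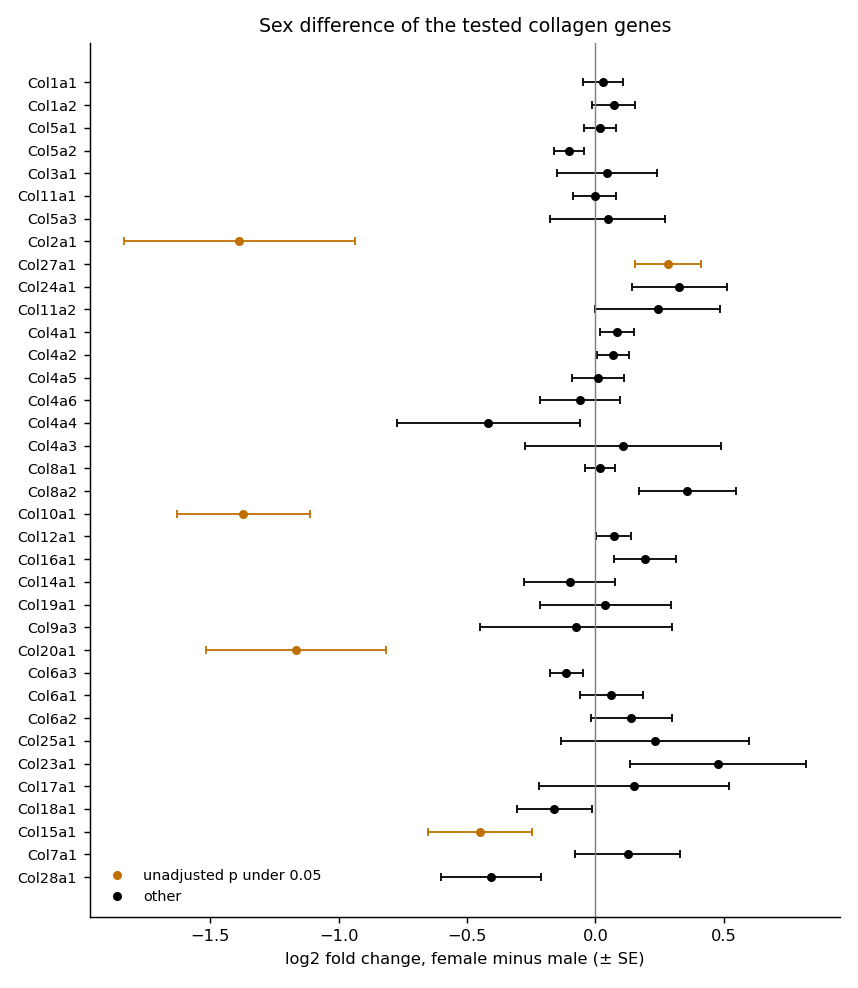
Log2 fold change of females against males (point) with its standard error (bar) for the 36 tested collagen genes, ordered by class and level; orange marks the 5 genes with an unadjusted p under 0.05. Most points lie within 0.5 of 0, and Col2a1, Col10a1 and Col20a1 lie beyond -1.

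The 3 largest estimates, those of Col2a1, Col10a1 and Col20a1, all had lower means in female libraries. Col10a1 (chr10:34389981-34397085) encodes the type X chain of hypertrophic cartilage. Its values were 1.27, 1.88, 2.19, 1.40 and 2.90 CPM in male libraries 1 to 5 and 0.622, 0.845, 0.753, 0.637 and 0.859 CPM in female libraries 1 to 5. All 5 female libraries lay below all 5 male libraries. The log2 fold change was -1.37 ± 0.26 (SE), with adjusted p = 0.0652 by edgeR.

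The Col10a1 difference passed the threshold under some settings and not under others. It passed with no filter on low counts (edgeR adjusted p = 0.00461), with DESeq2 (0.000748), with total exon reads (0.0284), with the replicate number as a block (0.0192) and without male replicate 1 (0.0276). Over the 10 fits that left out 1 library each, the adjusted p ran from 0.0276 to 0.247, and by limma-voom it was 0.159. The gene had between 17 and 87 unique exon reads per library and no intron read. These were 14.8% of its total exon reads. The gene lies within Nt5dc1 on the opposite strand, and whether counting used strand is not stated. Total exon reads of Nt5dc1 were 205 to 296 in male libraries and 188 to 268 in female ones, with overlap.

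In the authors' deposited table Col10a1 has a signed fold change of -2.52 and a false discovery rate of 8.98e-07. Among the 52550 genes there, 82 (0.156%) have a rate under 0.05, and Col2a1 is the only other collagen gene among them, at -2.64 and 0.0339.

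Col2a1 (chr15:97975602-98004695) encodes the type II chain of cartilage fibrils and was the most variable of the better covered collagen genes. Its values were 17.3, 24.004, 35.6, 54.9 and 61.2 CPM in males and 6.47, 21.1, 10.96, 12.6 and 22.9 CPM in females. Male libraries 4 and 5 stood highest, and male library 1 lay within the female range, so the groups overlapped. The log2 fold change was -1.39 ± 0.45 with adjusted p = 0.481 by edgeR.

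Col20a1 (chr2:180986535-181017540), a FACIT gene singled out after its values were seen, had a level of 0.147, 0.120, 0.0939, 0.0965 and 0.159 in males and 0.0436, 0.0322, 0.0503, 0.0804 and 0.0683 in females. All female libraries lay below all male libraries, with 4 to 20 exon reads each. The log2 fold change was -1.17 ± 0.35 and adjusted p = 0.396 by edgeR. With intron reads included it was 0.00358, so the direction was lost. In the authors' deposited table Col20a1 has a signed fold change of 1.05, the opposite direction to its exon reads here. Reads across Col20a1 exon junctions numbered 2, 2, 4, 4 and 3 in males and 2, 2, 4, 4 and 1 in females, with overlap. In GENCODE M21 the exons of Col20a1 also overlap those of BX649560.1, a gene on the same strand. Col10a1 and Col20a1 were the only 2 of 36 collagen genes whose groups did not overlap, and 1.35% of all tested genes did so in either direction.

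The remaining genes with an unadjusted p under 0.05 were Col15a1, a multiplexin, at -0.45 ± 0.20, and Col27a1, a fibrillar chain, at 0.28 ± 0.13, both with adjusted p = 0.662 by edgeR. Among the other cartilage collagens, Col11a1 had a log2 fold change of -0.00 ± 0.08, Col11a2 of 0.24 ± 0.24 and Col9a3 of -0.08 ± 0.37, and Col9a1 and Col9a2 had too few reads for the test.

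Other cartilage genes were read beside these collagens. Of 11 cartilage markers 7 were tested, 1 was positive and the median log2 fold change was -0.37, against 0.00298 over all genes, and 1 was called by edgeR, as lower in females (0.118% of all genes were called). Sox6, a transcription factor of the chondrocyte lineage, fell by 0.97 ± 0.15 on the log2 scale in females (edgeR adjusted p = 0.0156), from 6.98, 6.08, 8.57, 9.67 and 7.32 CPM in males to 2.89, 4.29, 3.77, 4.12 and 4.65 CPM in females. Hapln1, the link protein of cartilage matrix, had a log2 fold change of -1.68 ± 0.33 and adjusted p = 0.0765 by edgeR, and its groups did not overlap. DESeq2 called 2 of the 7, Sox6 and Hapln1 (0.639% of all genes), and limma-voom called Sox6.

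Sox9, the master regulator of cartilage formation, read 49.8, 55.0, 48.8, 51.7 and 45.8 CPM in the male libraries, against 51.0, 58.3, 53.3, 54.9 and 63.2 CPM in the female ones, and the groups overlapped. The summed level of the 11 markers, most of it Sox9, was 64.8 to 75.3 CPM in males and 61.5 to 77.4 CPM in females. Matn1, Cnmd, Ucma and Epyc, which are specific to cartilage, were at most 0.146 CPM in any library. Of 7 genes of hypertrophic cartilage and bone 4 were tested, 0 were called and 0 were positive, with a median of -0.26. Their summed level, most of it Spp1, was 836 to 1469 CPM in males and 641 to 1114 CPM in females. The part of cartilage cells in the Col2a1 and Col10a1 values was not tested. In the endothelial list 5 of 6 genes were tested, 3 were positive and the median log2 fold change was 0.11, with summed levels of 92.7 to 127 CPM in males and 105 to 166 CPM in females. Erg was called lower in females there (log2 fold change -1.69 ± 0.27, edgeR adjusted p = 0.0177), though not by limma-voom.

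**Figure D5:**
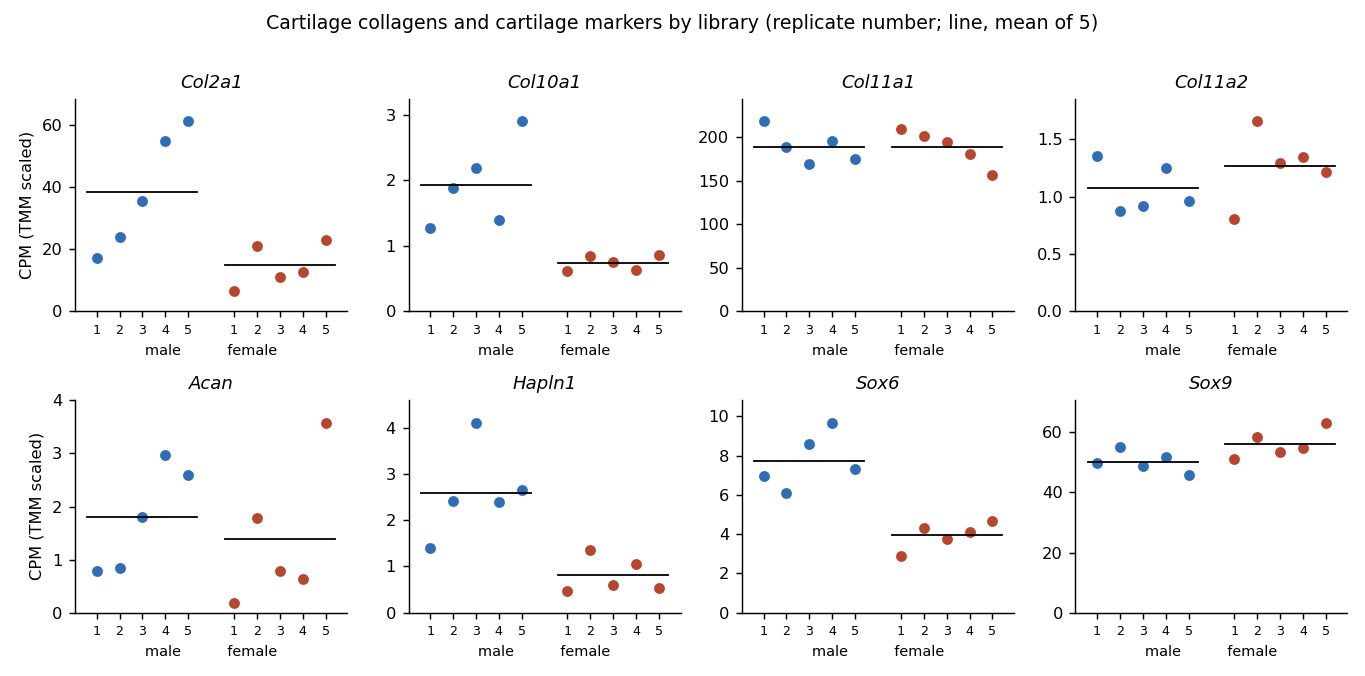
CPM of cartilage collagens (top row) and cartilage markers (bottom row) in each library, male replicates 1 to 5 in blue and female replicates 1 to 5 in red, with a line at the mean of 5. Col10a1, Hapln1 and Sox6 separate the sexes without overlap, Col2a1 reaches 61.2 in male library 5 against 22.9 in the highest female library, and Col11a1 and Sox9 lie at similar levels in both sexes.

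The ratio of intron to exon reads did not pass the test for a sex difference in any collagen gene. With limma on the log2 ratio, 35 of the 44 genes had enough reads of both kinds and 0 were called, while 4 of 11711 genes (0.0342%) were. At an unadjusted p under 0.05 there was 1 collagen gene, Col20a1, at 1.27 ± 0.40 (limma adjusted p = 0.830). The median log2 difference was 0.02 for the collagen genes and 0.04 for all genes.

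The genes that modify, fold, secrete, cut and crosslink collagen spanned a wide range of levels and showed no sex difference past the edgeR threshold. The level was at least 1 in 47 of the 53 genes and lowest in Tll2, at 0.0154. Of the 53 genes 51 were tested, and 0 were called higher and 0 lower in females by edgeR, against 0.118% of all genes called. There were 4 at an unadjusted p under 0.05, against 7.43% of all genes. Fold changes were positive in 22 of the 51, against 51.3% of all genes, with a median of -0.00743. DESeq2, which called 0.639% of all genes, called 1 of them lower in females, the crosslinking enzyme Loxl4, whose log2 fold change by edgeR was -0.47 ± 0.13 (adjusted p = 0.395), and limma-voom called 0. In the group of prolyl hydroxylases and their relatives, P4hb, a subunit of the enzyme that stabilises the helix, had a level of 379.5 ± 17.6. P3h4, a family member without the catalytic domain, was at 55.7 ± 6.81. Among the enzymes that hydroxylate and glycosylate lysine, Plod3 stood at 57.0 ± 2.44 and Colgalt1 at 48.2 ± 2.12. Serpinh1, the collagen chaperone HSP47, was at 717 ± 39.1, and Fkbp10, a folding enzyme of the endoplasmic reticulum, at 96.0 ± 3.33.

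On the way out of the cell and outside it, the coat proteins Sec24d and Sec23a were at 42.0 ± 5.56 and 33.9 ± 4.48. Pcolce, which enhances the removal of the propeptide, was at 113 ± 8.16 and the proteinase Bmp1 at 85.3 ± 8.03. Lox, which starts crosslinks between chains, was at 657 ± 41.6 and Loxl1 at 127 ± 7.39. The matrix proteins Sparc and Bgn, which bind collagen, were at 926 ± 48.9 and 782 ± 49.0. Itgb1, the common chain of collagen-binding integrins, was at 589 ± 22.8 and Mrc2, an uptake receptor, at 63.8 ± 10.3. All of these levels are means over 10 libraries with their SD.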

How the data were processed

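RNA was measured in 10 libraries, 5 male and 5 female, grouped and numbered by the sample titles. The authors deposited whole-number read counts per gene, not normalized, per the file headers, which separate unique from total reads and exon, intron and exon junction reads. The same table holds the authors' p-value, false discovery rate and signed fold change, per the file headers. Per the submitters' processing notes, mm10 was used. No aligner, counting rule or strand setting is given in the sources here. A further 90 per-library value columns were not used here.

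Unique exon reads were tested with edgeR 4.0.16 (R 4.3.3): filterByExpr at a minimum count of 10, TMM factors, the robust quasi-likelihood test of sex alone, two-sided, Benjamini-Hochberg adjustment over all tested genes and a threshold of 0.05. The log2 ratio of intron to exon reads, with 0.5 reads added to each and a mean of at least 10 of each, was tested with limma 3.58.1. DESeq2 1.42.0 was an alternative. Levels are TMM-scaled CPM per kilobase of the deposited exon length. Against the principal transcript in GENCODE M21, that length ran from 0.837-fold in Col20a1 to 3.91-fold in Col25a1. Transcript length and junction counts, from GENCODE M21, were added as alternatives after seeing the data. Both fits were tested on simulated data. The edgeR fit recovered 30% of 1.25-fold, 78% of 1.5-fold and 96% of 2-fold changes, with 8.98% of its calls false. These changes were planted among all tested genes with a mean of at least 1 CPM. The median coefficient of variation estimated by edgeR was 18.6% for the tested collagen genes and 10.3% for all tested genes. Recovery for collagen genes alone, or below 1 CPM, was not computed and could be lower. The ratio fit recovered 0% of 1.25-fold, 8% of 1.5-fold and 68% of 2-fold changes, with 13.3% of its calls false. Small differences in the ratio could therefore go undetected.

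In GENCODE M21, 43 of the 44 collagen genes have the same span, 28 overlap another gene and 10 share exon sequence with a gene on the opposite strand, where unstated strand use leaves counts uncertain. Collagen genes, classes, gene lists and named genes were chosen with earlier results of these data known. Named are up to 4 genes of highest level per class, partner chains, cartilage collagens, genes called under any setting or in the authors' table, the 3 highest and lowest in intron share and in CV, and genes at or near 0; Col20a1 was added after its values were seen. For the other lists, the 2 most abundant genes of each role and any called gene are named.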

Additional observations from a re-analysis of the deposited data

Results flagged for a closer look

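Within each sex, 38 levels and ratios were checked for a library standing apart from the other 4, by Dixon's criterion at 95%, which gave 76 groups of 5. There were 3 such values, where chance at 1 in 20 would give 3.8. For Col5a1, female library 2 stood at 290.9 CPM per kilobase, with the other female libraries between 230.6 and 238.6. For the ratio of Col8a1 to Col8a2, female library 5 stood at 63.2, with the others between 97.2 and 103.5. For the ratio of Col11a1 to Col11a2, female library 1 stood at 184, with the others between 86.0 and 106. Female library 2 also had the highest share of collagen reads, 3.03%. Col8a2 and Col11a2 had means of 80.9 and 32.7 exon reads, so their ratios carry more counting error.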

How the results depend on the processing

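The count of collagen genes called for sex was 0 and became 1 with no filter on low counts, with DESeq2, with the replicate block and with total exon reads, in each case Col10a1. Over the fits without 1 library it ran from 0 to 1, the 1 being without male replicate 1. Over all genes, 16 calls became 46 with no filter, 87 with DESeq2 and 79 with the replicate block, and 10 (without female replicate 3) to 23 without 1 library. For the intron to exon ratio, 4 calls over all genes became 8 with a mean of at least 1 read and 8 with the replicate block (3 to 6 without 1 library), and 0 collagen genes were called under any setting. Whether the replicate numbers pair the samples is not labelled. Same-numbered libraries correlated at 0.200, 0.0757, 0.120, 0.0331 and 0.285, and differently numbered ones at -0.185 to 0.211. Only 1 of 5 male libraries correlated best with its own number, but 5 pairs are too few to settle whether the numbers pair the samples. Col20a1 was at 0.00358 with unique gene reads. The collagen share of reads was 2.36% with total exon reads and 2.06% with unique gene reads. The ratio of Col1a1 to Col1a2 was 2.10 with transcript length and 2.25 from junctions, that of Col5a1 to Col5a2 0.795 and 0.842, and that of Col6a1 to Col6a2 1.44 and 1.33, both scales being chosen after seeing the data. The cause of these shifts was not tested. No junction ratio was computed for Col8a1 to Col8a2. The level moved by more than 1 SD for 17 of 44 genes with transcript length and 12 with total exon reads, and for 0 of 44 without TMM or without 1 library. The median log2 fold change of the collagen genes was -0.03 without female replicate 2, and that of their intron to exon ratio ran from -0.15 (without male replicate 4) to 0.15 (without male replicate 1). Few reads on Col10a1, Col20a1 and the other genes below a level of 1 limit what could be detected there.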
